A study of Mus musculus with 8 samples.

Results

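A set of 10 genes that mark fat cells was followed in bulk RNA-seq of 8 subcutaneous MC38 tumors, as a measure of fat tissue next to the tumor. The genes were Adipoq, Lep, Retn, Cfd, Plin1, Plin4, Cidec, Fabp4, Lpl and Pparg, and they are 10 of the 24421 genes in the count table. All 10 were listed, and 9 passed the expression filter of edgeR (filterByExpr) together with the other genes tested, 14468 in all. Lep did not pass it. MC38 is a mouse colon adenocarcinoma line, and cells of Kaede mice carry a green fluorescent protein that violet light turns red. All 8 tumors grew from 250000 MC38 cells in 9-week-old female B6 Kaede mice. The 4 photoconverted tumors received 405-nm light for 3 min on day 10, the 4 control tumors received none, and all were collected 5 h later. The comparison asks what the light did to the tumor tissue. How much adjoining fat, muscle or skin was taken with each tumor is not given in the sources used here.

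White fat cells store triglyceride in a single large lipid droplet and release it as fatty acids on demand. The droplet is coated by perilipins, fatty acids are taken up with the help of a secreted lipase and carried in the cell by a small binding protein, and the whole program is set by the nuclear receptor PPARG together with C/EBP factors. Fat cells also secrete hormones, the adipokines. A layer of such cells lies under the skin of the flank, where these tumors were implanted. In bulk RNA a low level of these transcripts can come from few fat cells or from little RNA per cell, and the 2 cannot be told apart.

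Total counts were 16735293 to 35844417 in photoconverted tumors and 12576615 to 29439901 in control tumors. The share of counts on Rn45s, the ribosomal RNA precursor, was over 10% in photoconverted tumor 4 (21.9%), control tumor 2 (35.7%) and control tumor 4 (23.2%), and 2.70% to 9.65% in the other 5 tumors. These 3 libraries also had the lowest totals. Levels are given as CPM, the usual counts-per-million scale, after TMM scaling.

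Adipocyte genes are known targets of PPARG, which binds with its partner RXR to a repeat of AGGTCA, and of C/EBP factors, which bind TTGCNNAA. These letters were searched on both strands in the 250 bases before each start site that RefSeq gives on GRCm38.p6. Promoters were found for 8 members (11 start sites). The full motif, AGGTCA repeated with a single base between (DR1), was in 0 of the 11 and in 0.0335% of all 32851 promoters, and AGGTCA alone, which lies within the full motif, was in 2 of the 11, both of Pparg, against 14.0% of all. TTGCNNAA was in 4 of the 11, of Lep, Plin1, Cidec and Pparg, against 9.56% of all. Stretches are shown for these 4 genes, and for Adipoq as the member whose level followed the others most closely and whose promoter held none of these letters, read 5′ to 3′ on the gene's strand, with TTGCNNAA or its reverse complement in capitals. A match is a description of the letters and not a measured site. Plin1 held a second match, nearer to its start site, outside the stretch shown. Adipoq (chr16:23146415-23146534, plus strand), Lep (chr6:29060100-29060219, plus strand), Plin1 (chr7:79732907-79733026, minus strand), Cidec (chr6:113434895-113435014, minus strand, before 1 of its start sites) and Pparg (chr6:115421816-115422064, plus strand, before 1 of its start sites) read as follows.
Adipoq: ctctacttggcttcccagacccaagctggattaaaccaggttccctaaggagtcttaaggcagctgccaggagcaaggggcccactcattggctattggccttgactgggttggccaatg
Lep: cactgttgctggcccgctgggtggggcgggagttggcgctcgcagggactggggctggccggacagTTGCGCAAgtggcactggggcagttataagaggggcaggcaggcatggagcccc
Plin1: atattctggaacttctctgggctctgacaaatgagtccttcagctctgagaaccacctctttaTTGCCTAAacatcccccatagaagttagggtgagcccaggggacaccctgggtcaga
Cidec: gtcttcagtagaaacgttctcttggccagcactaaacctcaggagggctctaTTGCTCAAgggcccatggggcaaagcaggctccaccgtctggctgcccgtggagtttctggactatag
Pparg: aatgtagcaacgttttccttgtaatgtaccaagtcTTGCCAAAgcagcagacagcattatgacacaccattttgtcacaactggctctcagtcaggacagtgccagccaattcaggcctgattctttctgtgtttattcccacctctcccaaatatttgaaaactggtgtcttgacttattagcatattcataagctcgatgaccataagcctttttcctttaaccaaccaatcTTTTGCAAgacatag

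Transcripts of the list were counted in every tumor at low levels, but not those of each gene. Retn had 0 counts in photoconverted tumor 4 and 1 in control tumor 4, and Lep had 2 and 3 in control tumors 1 and 2. The 10 genes together made up 81.6 to 183 CPM in light-exposed tumors and 88.5 to 130 CPM in controls, and Lpl alone held 45.1% to 75.3% of this sum. The genes fell apart by how much they varied. Adipoq, Plin1 and Cfd differed over 10-fold between the highest and the lowest tumor, whereas Pparg and Lpl differed by 2.07-fold and 1.69-fold. No member differed between photoconverted and control tumors past the threshold in edgeR, and the highest tumor was photoconverted tumor 3 or 2 for all 10.

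Among the adipokines, Adipoq (chr16:23146536-23158028, plus strand; whole-gene positions are from GENCODE M21 on GRCm38) encodes adiponectin, a hormone made almost solely by fat cells. Its level was 1.05, 1.86, 4.69 and 0.410 CPM across photoconverted tumors 1 to 4 and 0.343, 1.18, 1.39 and 0.427 CPM across control tumors 1 to 4, from 6 to 119 counts. Photoconverted tumors 3 and 2 were the highest, control tumors 3 and 2 followed, and the groups overlapped. Cfd (chr10:79890853-79892655, plus strand) encodes complement factor D, also known as adipsin, a serine protease that fat cells secrete. Its level was 5.23, 20.8, 32.9 and 7.04 CPM across photoconverted tumors 1 to 4 and 1.57, 12.3, 15.6 and 6.41 CPM across control tumors 1 to 4. The same 4 tumors led in the same order as for Adipoq, and control tumor 1 was 21.0-fold below photoconverted tumor 3.

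Lep (chr6:29060220-29073877, plus strand) encodes leptin, the hormone that reports fat stores to the brain. It was counted 11, 55, 40 and 7 times across photoconverted tumors 1 to 4 and 2, 3, 15 and 7 times in control tumors 1 to 4, or 0.275, 1.74, 1.58 and 0.478 CPM against 0.0571, 0.321, 0.533 and 0.427 CPM. Photoconverted tumors 2 and 3 stood above all others, and the other 2 photoconverted tumors lay within the range of the controls. Retn (chr8:3655770-3660110, plus strand) encodes resistin, a hormone of white fat cells in mice. It was counted 16, 42, 29 and 0 times across photoconverted tumors 1 to 4 and 4, 7, 9 and 1 times in control tumors 1 to 4. The count of 0 in photoconverted tumor 4 allows a level of up to 0.205 CPM (3 counts), and photoconverted tumors 2 and 3 were again the highest, at 1.33 and 1.14 CPM.

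**Figure D1:**
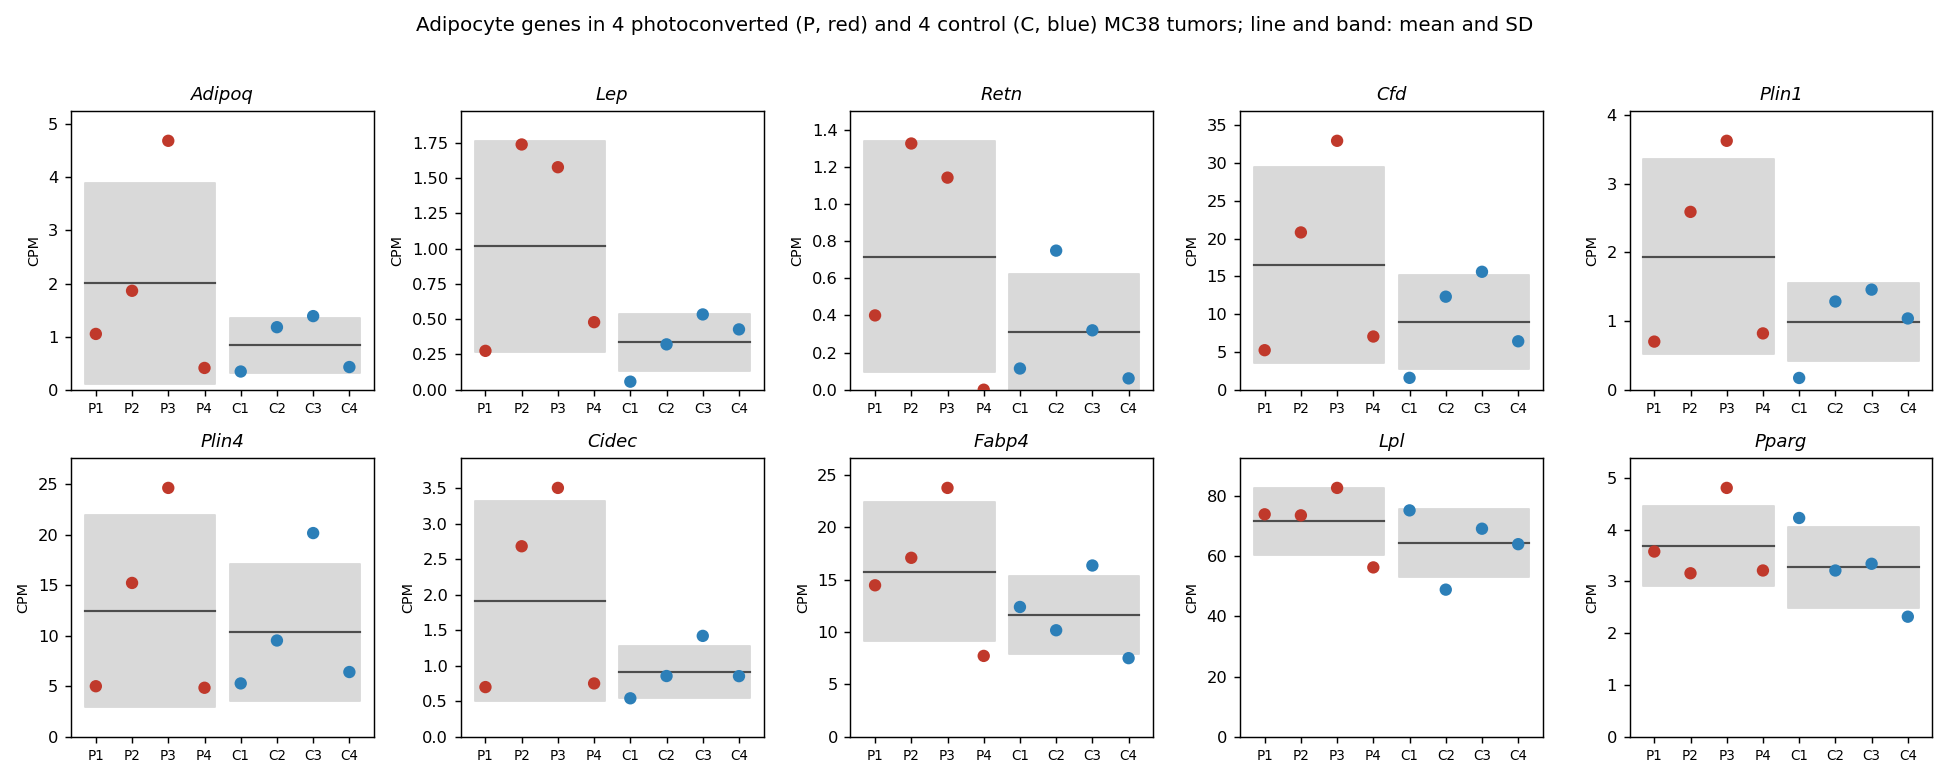
CPM of each of the 10 adipocyte genes (linear axes from 0, 1 panel a gene) in photoconverted tumors 1 to 4 (P1 to P4, red) and control tumors 1 to 4 (C1 to C4, blue); lines are group means and bands are 1 SD (n = 4 each). Photoconverted tumor 3 is the highest of all tumors in 8 of the 10 panels, and the groups overlap in all of them.

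Of the lipid droplet proteins, Plin1 (chr7:79720218-79732903, minus strand) encodes perilipin 1, which guards the droplet of fat cells against lipases. Its level was 0.701, 2.59, 3.62 and 0.820 CPM across photoconverted tumors 1 to 4 and 0.171, 1.28, 1.46 and 1.04 CPM across control tumors 1 to 4. Control tumor 1, with 6 counts, was the lowest by far, and photoconverted tumors 3 and 2 were the highest. Cidec (chr6:113424634-113435760, minus strand), whose protein helps small droplets fuse into large ones, was at 0.701, 2.68, 3.51 and 0.752 CPM across photoconverted tumors 1 to 4 and 0.542, 0.856, 1.42 and 0.855 CPM across control tumors 1 to 4. Photoconverted tumors 1 and 4 lay below 3 of the 4 control tumors. Plin4 (chr17:56100591-56109803, minus strand), a perilipin that coats small new droplets and is made in muscle as well, was at 5.00, 15.2, 24.6 and 4.85 CPM across photoconverted tumors 1 to 4 and 5.28, 9.53, 20.2 and 6.41 CPM across control tumors 1 to 4. Here control tumor 3 came second, above photoconverted tumor 2, and both of the lowest tumors were photoconverted.

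Fabp4 (chr3:10204088-10208576, minus strand) encodes the fatty acid carrier of fat cells, which macrophages and capillary endothelium also make. Its level was 14.5, 17.1, 23.8 and 7.72 CPM across photoconverted tumors 1 to 4 and 12.4, 10.2, 16.4 and 7.51 CPM across control tumors 1 to 4. The 3 leading tumors were the same as for Adipoq, but the highest was only 3.16-fold above the lowest. Lpl (chr8:68880491-68907448, plus strand) encodes lipoprotein lipase, which frees fatty acids from lipoproteins in capillaries and is also made by muscle and macrophages. Its level was 74.0, 73.6, 82.7 and 56.3 CPM across photoconverted tumors 1 to 4 and 75.3, 48.9, 69.2 and 64.0 CPM across control tumors 1 to 4. Control tumor 1, the lowest tumor for Adipoq, Cfd, Lep, Plin1 and Cidec, was the second highest for Lpl. Pparg (chr6:115360951-115490399, plus strand), the nuclear receptor that drives fat cell formation and is also used by some macrophages, was at 3.58, 3.16, 4.81 and 3.21 CPM across photoconverted tumors 1 to 4 and 4.23, 3.21, 3.34 and 2.32 CPM across control tumors 1 to 4. Control tumor 1 was second for Pparg too, and photoconverted tumor 2, which led or came second for 7 of the 10 members, was the second lowest.

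The spread over the 8 tumors was wide against that of other genes for Plin1, Cfd, Adipoq, Cidec and Plin4, but not for Lpl. Among 13883 tested genes with over 3 counts in every tumor, the median ratio of the highest to the lowest CPM was 1.79, and 1.15% of genes reached 10-fold. The ratio was 21.2 for Plin1, 21.0 for Cfd, 13.7 for Adipoq, 6.46 for Cidec and 5.07 for Plin4. It was 3.16 for Fabp4, 2.07 for Pparg and 1.69 for Lpl, and that of Lpl lay below the median. For Plin1 and Adipoq the lowest tumor had 6 and 12 counts, so these ratios carry a large counting error. Between the 10 members the order of tumors was uneven. Photoconverted tumor 3 was the highest or second highest for all 10, and control tumor 3 was among the top 3 for 7, whereas photoconverted tumors 1 and 4 and control tumor 1 were each among the lowest 2 for 5 members.

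Levels of different genes were compared per kilobase of the longest principal coding transcript in GENCODE M21 on GRCm38. The mean over 8 tumors was 16.5 CPM per kb for Lpl, 15.3 for Fabp4 and 13.8 for Cfd, followed by 1.98 for Plin4, 1.97 for Pparg, 1.10 for Adipoq, 0.823 for Cidec, 0.519 for Plin1, 0.451 for Retn and 0.207 for Lep. The first 3 did not differ beyond their spread over tumors, which reached from 1.70 to 35.7 CPM per kb for Cfd and from 11.9 to 20.1 for Lpl. By this length, every tumor had more Lpl (at least 11.9 CPM per kb) and Fabp4 (at least 8.38) than the highest tumor had Plin4 (4.28). Plin4, Pparg and Adipoq overlapped, as did the members below them with each neighbor. With the merged exons of all transcripts as length, Cfd (13.8) stood above Lpl (6.49) and Fabp4 (3.05), an alternative added after the data were seen, since both of the latter have annotated transcripts with long unspliced parts. The mean of Plin4 was 1.97 with merged exons, so how far Fabp4 stood above Plin4 depended on the length used.

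Between photoconverted and control tumors, 0 of the 9 members tested passed 0.05 after Benjamini-Hochberg adjustment of edgeR's quasi-likelihood p-values, beside 0% of all 14468 genes. None of the 9 had an unadjusted p under 0.05 in edgeR either, against 2.23% of all genes (322 genes). DESeq2's Wald test called 24 of 17005 genes and 0 of 10 members, and so small a share of all genes makes the 0 say little about the members. All 9 members had a log2 fold change above 0, where 46.8% of all genes did, and the median was 0.89 against -0.01 for all genes tested. Of the 9, 4, or Adipoq, Retn, Plin1 and Cidec, had a log2 fold change of 1 or more, against 1.49% of all genes. The filter asks for enough counts in one group's number of tumors, so a gene this low that is high in 1 group passes more easily, and the members share their tumors, so these counts describe the list only. The groups overlapped for all 10 members (0 without overlap), against 1.33% of all genes without overlap.

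For each of the 10 members the SD of the photoconverted tumors was larger than the difference between the means. The mean of Adipoq was 2.00 ± 1.89 CPM with light and 0.833 ± 0.526 CPM without it (SD, n = 4 each), a log2 fold change of 1.31 (standard error 0.73, adjusted p = 0.999 in edgeR). That of Cfd was 16.5 ± 13.0 against 8.97 ± 6.23 CPM (SD, n = 4 each), a log2 fold change of 0.89 (standard error 0.73). That of Plin1 was 1.93 ± 1.42 against 0.988 ± 0.571 CPM (SD, n = 4 each), a log2 fold change of 1.03 (standard error 0.70). The remaining values were 1.50 for Retn, 1.06 for Cidec, 0.44 for Fabp4, 0.26 for Plin4, 0.16 for Pparg and 0.15 for Lpl, with standard errors from 0.16 for Lpl to 0.93 for Retn and an adjusted p of 0.999 in edgeR for each. For Lep, a fit with no filter on low counts gave a log2 fold change of 1.65 (standard error 0.73, adjusted p = 0.998 in edgeR).

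Single tumors moved these values. Without photoconverted tumor 3, the log2 fold change of Adipoq was 0.49, that of Cfd 0.31, that of Plin1 0.54 and that of Cidec 0.60, and that of Plin4 turned to -0.30. The median over the members tested was then 0.40, while Retn was at 1.22 and Lep at 1.37. Without photoconverted tumor 2, Retn was at 1.01. Without control tumor 1, the lowest tumor for 5 members, Cfd was at 0.53, Plin1 at 0.62 and Plin4 at 0.04. Without control tumor 3, the control with the most adipocyte RNA, the log2 fold change of Adipoq was 1.78 and that of Plin4 0.83, and without photoconverted tumor 1 that of Lep was 1.98. Among the 5 tumors whose Rn45s share was below 10% (3 photoconverted and 2 control), 0 of 10 members were called by edgeR, against 0.275% of all genes there, with a log2 fold change of 2.14 for Retn, 2.05 for Lep, 1.56 for Adipoq, 1.52 for Plin1, 1.22 for Cidec, 1.21 for Cfd, 0.36 for Fabp4, 0.23 for Plin4, 0.09 for Lpl and 0.02 for Pparg. Without photoconverted tumor 4, 5 of 10 members had an unadjusted p under 0.05 in edgeR, against 5.26% of all genes in that fit, and 0 were called. The tumor left out was among the lowest 2 for 5 members, and Lep, 1 of the 5 members under 0.05, passed the filter only without it. The members share their tumors, so this count describes the list only.

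Deviations of tumors with the same replicate number in both groups correlated across genes by 0.11 in pair 2 to 0.62 in pair 4. No source used here states that the numbers pair tumors. Photoconverted tumor 3 correlated better with control tumor 1 (0.48) than with control tumor 3 (0.41). The fit with the replicate number as a block is given as an alternative. With it, 6 of the 9 members had an unadjusted p under 0.05, against 6.01% of all genes, and 0 had an adjusted p under 0.05 in edgeR. The 6 were Adipoq, Retn, Cfd, Plin1, Cidec and Fabp4. The members share their tumors, so this count describes the list only. The blocked log2 fold changes were close to the others (1.18 for Adipoq, 0.92 for Cfd, 1.01 for Plin1) with smaller standard errors (0.36, 0.23 and 0.38), and the lowest adjusted p was 0.564, for Cfd, in edgeR. On log2 CPM with a pseudocount of 0.5, the photoconverted tumor was the higher of its pair for 7 members in pair 1, 9 in pair 2, 10 in pair 3 and 4 in pair 4. It was higher in all 4 pairs for Cfd and Fabp4, or 2 of the 9 members tested, against 7.20% of all genes tested, and also for Lep, which is not among the genes tested.

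**Figure D2:**
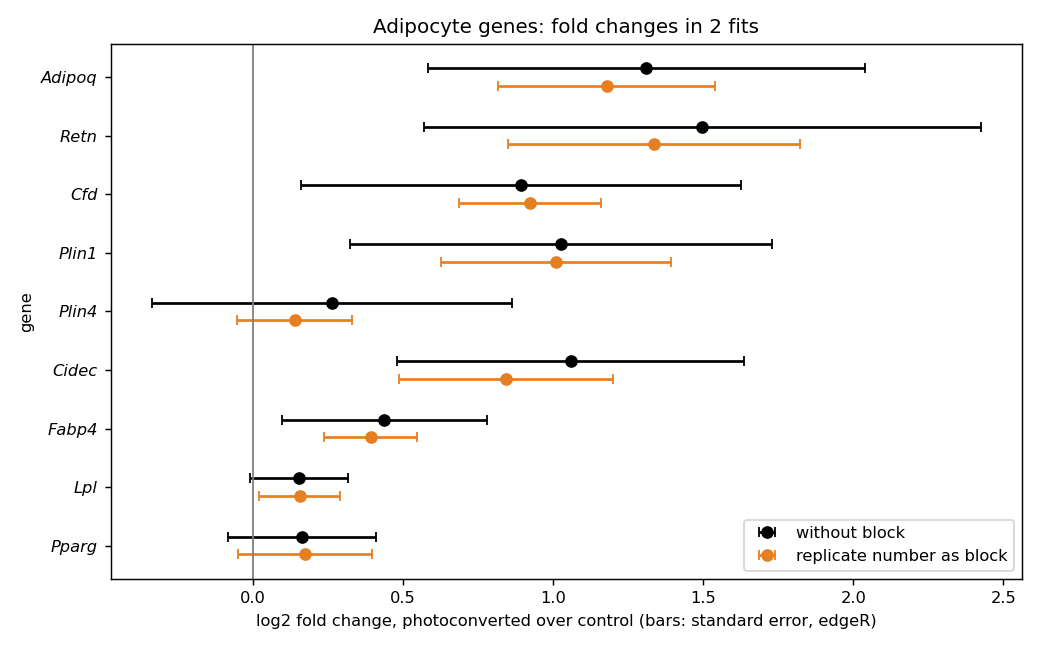
Log2 fold change of photoconverted over control tumors for the 9 adipocyte genes tested, without the replicate number as a block (black) and with it (orange); bars are standard errors from edgeR. All points lie above 0 (that of Plin4 is -0.30 without photoconverted tumor 3), the standard errors are smaller with the block for all 9 genes, and Plin4, Lpl and Pparg lie nearest to 0.

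The members were then compared by how they went along with each other. The adipocyte pattern was the mean log2 CPM of the 9 members tested, each relative to its own mean over the 8 tumors. It was -0.25, 0.81, 1.31 and -0.76 across photoconverted tumors 1 to 4 and -0.95, 0.07, 0.37 and -0.61 across control tumors 1 to 4. The highest and the lowest tumor, photoconverted tumor 3 and control tumor 1, both had an Rn45s share under 10%, and the 3 tumors with a larger share lay between them. Each member was set against the pattern of the other 8. Pearson's r over the 8 tumors was 0.97 for Adipoq, 0.93 for Cidec, 0.89 for Plin4, 0.87 for Cfd, 0.85 for Plin1, 0.80 for Retn and 0.79 for Fabp4, but 0.35 for Lpl and 0.33 for Pparg. Spearman's rho was 1.00 for Adipoq, 0.24 for Lpl and 0.07 for Pparg. These values are descriptions over tumors that differ in depth and Rn45s share, and the low counts of Retn, 0 and 1 in 2 tumors, add error to its value.

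**Figure D3:**
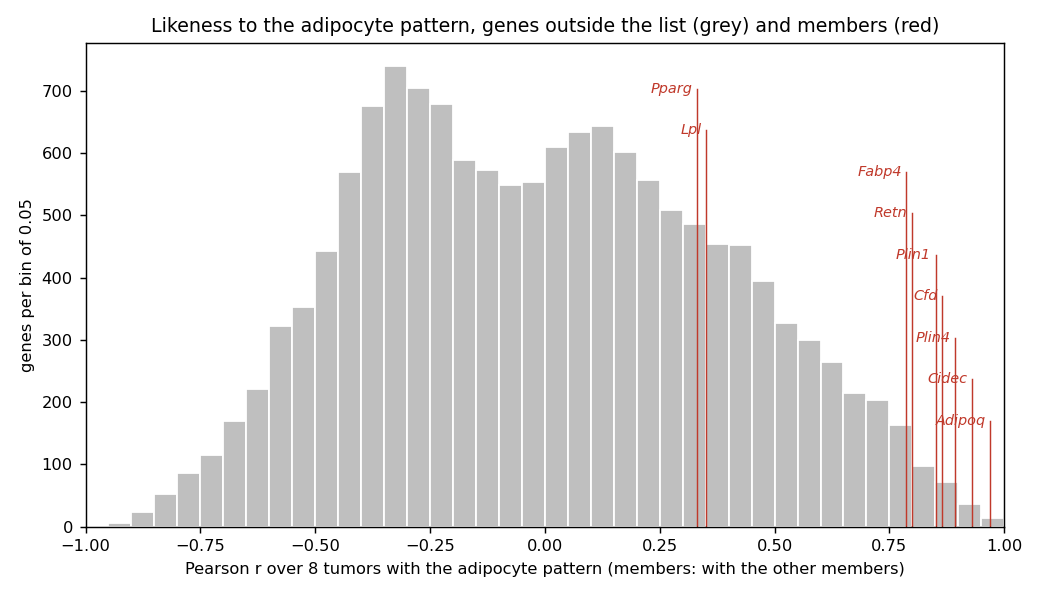
Pearson's r over 8 tumors between log2 CPM and the adipocyte pattern for 14459 tested genes outside the list (grey, genes per bin of 0.05) and for each member against the other members (red lines). Adipoq, Cidec, Plin4, Cfd, Plin1, Retn and Fabp4 lie at 0.79 or more, and Lpl and Pparg lie at 0.35 and 0.33.

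Outside the list, the median r with the pattern was -0.02, 50 genes (0.346%) reached 0.9 and 219 (1.51%) reached 0.8. The 8 genes with the highest r were Perp (0.97), Hspb6 (0.97), Sptb (0.97), Jsrp1 (0.96), Rpl3l (0.96), Art1 (0.96), Des (0.96) and Pdlim3 (0.96). Of these, Des encodes the muscle intermediate filament desmin, Rpl3l a ribosomal protein of striated muscle, Jsrp1 a protein of the muscle junctional membrane, and Pdlim3 a protein of the muscle Z-disc. Hspb6 encodes a small heat shock protein of muscle, and Perp a protein of epithelial desmosomes. Perp was low, with 0.0571 to 2.13 CPM, and Des ranged from 14.1 to 88.4 CPM. None of the 8 was past the threshold between the groups (adjusted p = 0.999 in edgeR for each).

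**Figure D4:**
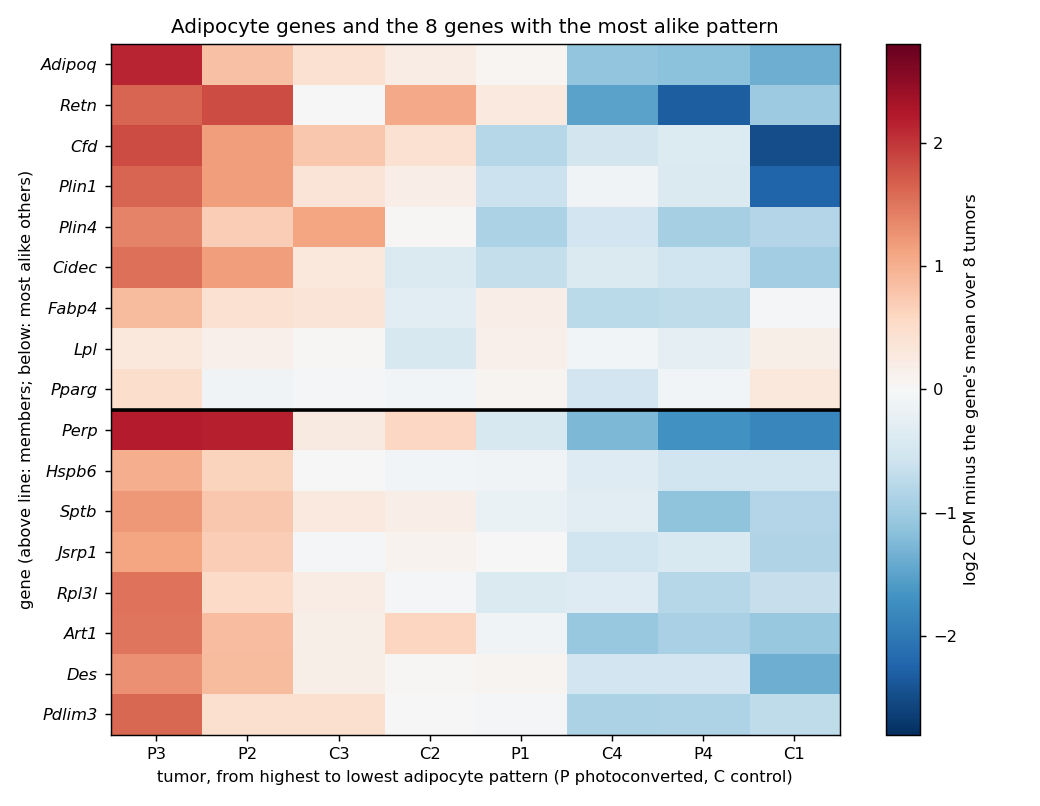
Log2 CPM relative to each gene's mean over 8 tumors, for the 9 adipocyte genes tested (above the line) and the 8 other genes with the most alike pattern (below), with tumors ordered by the adipocyte pattern (P photoconverted, C control). Photoconverted tumors 3 and 2 are high and control tumor 4, photoconverted tumor 4 and control tumor 1 are low for most rows, and the rows of Lpl and Pparg are nearly flat.

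Skeletal muscle genes went with the adipocyte genes. All 15 genes of the muscle list were tested, and 11 had an r of 0.8 or more with the adipocyte pattern (median 0.85), among them Acta1, the actin of skeletal muscle (r = 0.93), and Myh2, a fast myosin (r = 0.84). Ttn, the giant sarcomere protein titin, had an r of 0.75. The summed level of the list was 810, 1279, 2659 and 335 CPM across photoconverted tumors 1 to 4 and 679, 701, 821 and 306 CPM across control tumors 1 to 4, and none of its genes was at 0 in every tumor. Photoconverted tumors 3 and 2 and control tumor 3 were the highest 3, as for Adipoq. Control tumor 1 had the lowest level of Adipoq but 679 CPM of muscle genes, above photoconverted tumor 4 and control tumor 4. All 15 muscle genes had a log2 fold change above 0 (median 1.06), against 46.8% of all genes tested. In edgeR 2 had an unadjusted p under 0.05, against 2.23% of all genes, and 0 were past the threshold. The 15 genes share their tumors, so these counts describe the list only. The part of the muscle genes in the differences of the adipocyte genes was not tested.

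Skin genes were scarce, and their sum was highest in the same 3 tumors. The list of 11 keratinocyte and sebaceous genes in the table summed to 12.8, 25.7, 27.9 and 7.11 CPM across photoconverted tumors 1 to 4 and 6.82, 7.49, 17.2 and 11.5 CPM across control tumors 1 to 4. Scd3 alone gave 12.3 CPM of this sum in control tumor 3 and 9.96 CPM in photoconverted tumor 1, but 6.78 CPM in photoconverted tumor 3. Its r with the adipocyte pattern was 0.40. No gene of the list was at 0 in all tumors, 5 were tested, and 4 of these had a log2 fold change above 0 with 0 past the threshold. Over the 5 tested the median r with the adipocyte pattern was 0.40, from -0.45 for Awat2 to 0.82 for Krt14, a keratin of basal keratinocytes with 0.214 to 5.56 CPM and the only 1 of the 5 to reach 0.8. Of 10 macrophage genes, 0 reached an r of 0.8 with the pattern. Their sum was 719 to 1665 CPM in light-exposed tumors and 567 to 1489 CPM in controls, 4 of 10 had a log2 fold change above 0, and the median r with the pattern was 0.43. Control tumor 1, second for Lpl and Pparg, was second for macrophage genes as well (1489 CPM), with 447 CPM of the lysozyme gene Lyz2 and 193 CPM of the complement gene C1qa. Control tumor 2 went the other way, with 1296 CPM of macrophage genes and the highest C1qa (256 CPM) but the lowest Lpl (48.9 CPM). Endothelial genes summed to 142 to 206 CPM and 134 to 178 CPM in the 2 groups, with a median r of 0.48. Whether macrophages or endothelium gave rise to the Lpl, Fabp4 or Pparg counts was not tested.

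**Figure D5:**
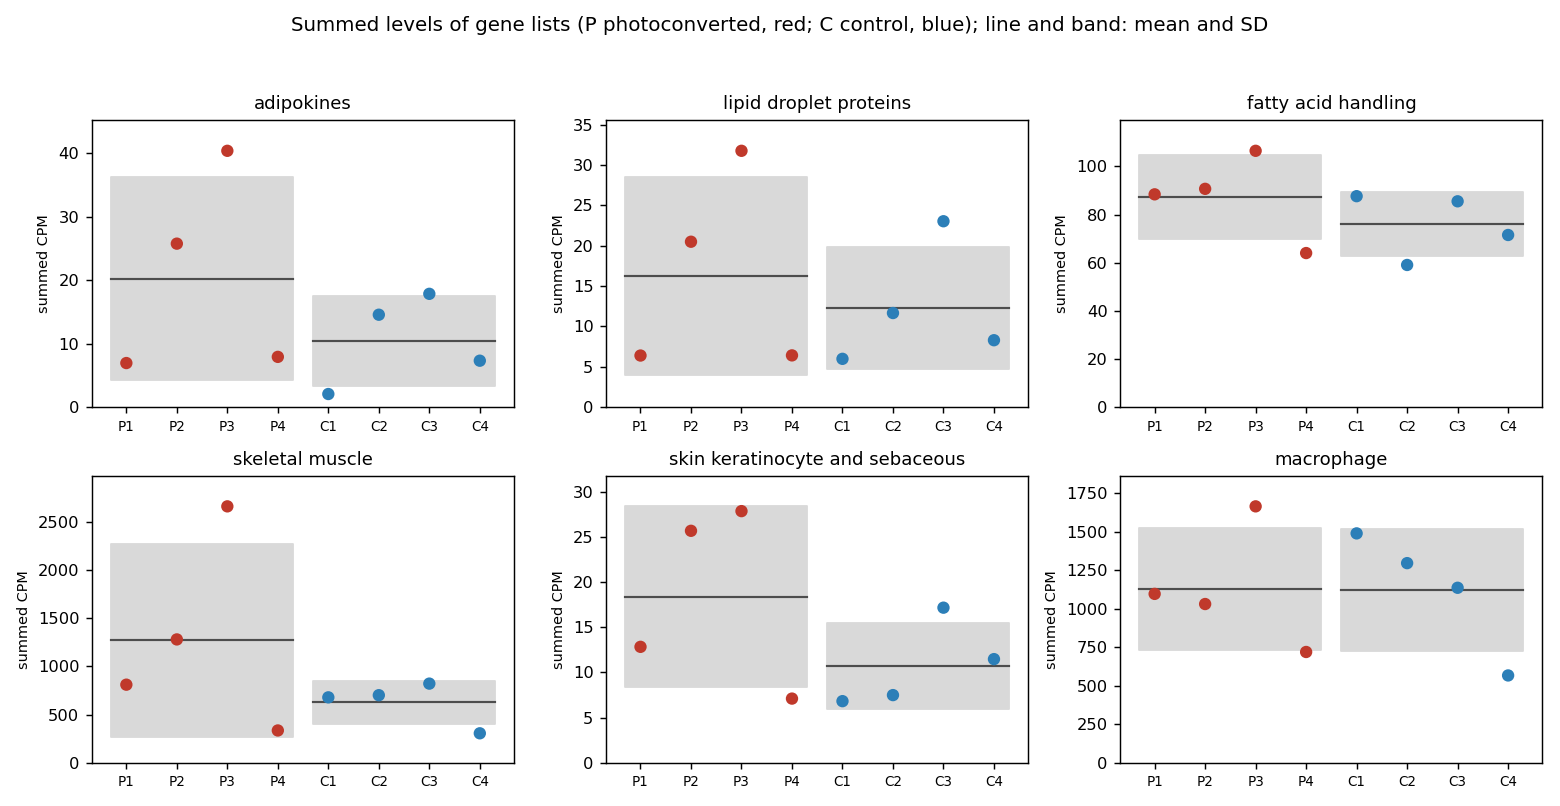
Summed CPM (linear axes from 0) of 3 role groups of the adipocyte genes and of skeletal muscle, skin and macrophage lists in photoconverted (P, red) and control (C, blue) tumors; lines are group means and bands are 1 SD (n = 4 each). All 6 sums are highest in photoconverted tumor 3, and the sum of the fatty acid handling genes Fabp4 and Lpl varies by 1.80-fold, against 19.4-fold for the adipokines.

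Other genes of fat cell biology were followed as lists, and in each of them 0 genes were past the threshold in edgeR. Of 18 other genes typical of white fat cells, 9 were tested, of which 7 had a log2 fold change above 0 and 2 below. Their median r with the adipocyte pattern was 0.42, from -0.61 for Pcx to 0.88 for Gpd1, the only 1 of the 9 to reach 0.8. Gpd1, which makes the glycerol backbone of triglycerides, had 1.23 to 6.15 CPM. Adipor2, an adiponectin receptor found in many tissues, and Acsl1, which activates fatty acids, were the most abundant of these, with 59.7 to 83.0 CPM (r = -0.37) and 28.7 to 40.0 CPM (r = 0.21). Genes of triglyceride synthesis varied little as a sum (107 to 121 CPM over all 8 tumors), and Dgat1, which adds the last acyl chain, was at 26.0 to 31.3 CPM in photoconverted and 18.8 to 29.1 CPM in control tumors. Agpat2, which adds the acyl chain before it, was at 24.6 to 30.0 CPM over all 8.

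Among 7 lipolysis genes, 6 were tested and 4 had a log2 fold change above 0. Over the 6 tested the median r with the adipocyte pattern was 0.57, from 0.26 for Abhd5 to 0.94 for Lipe. Lipe, the only 1 of the 6 to reach 0.8, had 8.36 to 14.5 CPM and a log2 fold change of 0.15. G0s2, an inhibitor of the main triglyceride lipase, had 2.90, 2.18, 5.59 and 0.888 CPM across photoconverted tumors 1 to 4 and 0.485, 1.07, 0.960 and 1.28 CPM across control tumors 1 to 4, with a log2 fold change of 1.66 (standard error 0.54, adjusted p = 0.999 in edgeR). Of the photoconverted tumors, 3 of 4 were above every control tumor, and photoconverted tumor 4 was not. G0s2 was named for the smallest p of its list in edgeR, so this order of tumors is no separate result. Pnpla2, which encodes that lipase, had 21.6 to 37.7 CPM, and its activator Abhd5 had 16.7 to 25.8 CPM. Of the fatty acid synthesis genes, 6 of 7 tested had a log2 fold change below 0 (median -0.07). Fasn, the fatty acid synthase, was abundant in all tumors and highest in those with a large Rn45s share, with 714 CPM in photoconverted tumor 4 and 763 and 728 CPM in control tumors 2 and 4, against 338 to 536 CPM in the other 5. Acly, which supplies its acetyl-CoA, was at 239 to 321 CPM, and Elovl6, an elongase, at 36.1 to 55.6 CPM.

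Of 11 other regulators of fat cell formation, 10 were tested, 4 with a log2 fold change above 0 and 6 below. Cebpb, an early factor of the program that inflammation also induces, was highest in the tumors with a large Rn45s share and in photoconverted tumor 2 (108 to 130 CPM, against 50.7 to 87.3 CPM in the other 4), and its r with the pattern was 0.10. Srebf1, a regulator of lipid synthesis, was the most abundant of the list with 161 to 294 CPM. Cebpd had 8.47 to 20.0 CPM in photoconverted and 6.61 to 11.8 CPM in control tumors. Of partners of the secreted members, Angptl4, an inhibitor of lipoprotein lipase, was at 52.4, 58.0, 58.8 and 22.0 CPM across photoconverted tumors 1 to 4 and 19.8, 39.7, 24.5 and 23.0 CPM across control tumors 1 to 4. Photoconverted tumors 1 to 3 were above every control tumor and photoconverted tumor 4 was not. The log2 fold change was 0.85 with a standard error of 0.33 (adjusted p = 0.999 in edgeR). Angptl4 was named for the smallest p of its list in edgeR, so this order of tumors is no separate result. The adiponectin receptor Adipor1 had 128 to 175 CPM over all 8 tumors.

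The brown fat list held genes with few counts and genes that were well measured. Ucp1, the uncoupling protein that defines brown fat cells and was named after its values were seen, had 0 to 13 counts per tumor, and Cidea and Otop1 had at most 3. Of the 9 genes of this list 6 were tested, and 5 had a log2 fold change above 0 (median over the 6 of 0.71). Their median r with the adipocyte pattern was 0.67, with 0.83 for Cox8b, a subunit of cytochrome oxidase in muscle and brown fat, and 0.82 for Ppargc1a, a coactivator of mitochondrial genes. For Elovl3 the r was -0.48. Dio2, a deiodinase that is made in several tissues, had 1.09 to 4.49 CPM in photoconverted and 0.963 to 1.92 CPM in control tumors (log2 fold change 1.02, standard error 0.42, adjusted p = 0.999 in edgeR). Prdm16, a factor of the brown fat program, was the most abundant, at 11.1 to 21.7 CPM, and ran the other way, with an r of -0.89 and its lowest level in photoconverted tumor 3.

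Cd34 and Ly6a, the most abundant of the adipose progenitor list but shared with endothelium and other stroma, had 280 to 404 CPM and 159 to 324 CPM, and 4 of the 7 genes tested in that list had a log2 fold change above 0. Pdgfrb, a receptor of mural and stromal cells, had 48.3 to 79.3 CPM. Among fibroblast genes, 4 of 7 had a log2 fold change above 0, and the collagens Col3a1 and Col1a1 stood out in control tumor 2 (5063 and 4607 CPM), which was in the middle of the tumors for the adipocyte pattern.

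Paralogs with wider tissue use varied less than the members in some families and not in others. Plin2, the perilipin of most cells, was at 156 to 212 CPM and Plin3 at 61.7 to 90.5 CPM, with ratios of highest to lowest tumor of 1.35 and 1.47 against 21.2 for Plin1. Per kilobase, the mean level over 8 tumors was 95.3 CPM for Plin2 and 0.519 CPM for Plin1. Fabp5, the fatty acid carrier of epithelia and macrophages, was at 20.2 to 40.3 CPM, which made 29.4 CPM per kb against 15.3 for Fabp4. Fabp3, the carrier of muscle, had 0.205 to 1.89 CPM in photoconverted and 0.0610 to 0.856 CPM in control tumors. Plin5 had at most 14 counts and Cideb at most 7. Of the resistin relatives, Retnla, made by activated macrophages, had 1.98 to 22.9 CPM in photoconverted and 1.95 to 20.8 CPM in control tumors, Retnlg, made by neutrophils, had 0.410 to 3.39 and 0.488 to 0.999 CPM, and Retnlb had no counts. The ratio of highest to lowest tumor was 11.7 for Retnla and 8.26 for Retnlg. The log2 fold change of Retnlg came to 1.54 with a standard error of 0.58 (adjusted p = 0.999 in edgeR). Lipg, the endothelial lipase, was at 36.4 to 64.4 CPM, a ratio of 1.77 against 1.69 for Lpl, and Lipc at no more than 6 counts. Ppard was at 22.1 to 34.4 CPM and Ppara at no more than 12 counts, and the ratio of highest to lowest tumor was 1.56 for Ppard against 2.07 for Pparg.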

How the data were processed

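RNA of 8 MC38 tumors (4 photoconverted, 4 control) was sequenced as whole tissue. For each gene symbol the authors gave raw counts, deposited with no normalization, and normalized signal values, which are those counts divided by a size factor per tumor. The submitters' processing notes name Trim Galore, HISAT2, featureCounts, DESeq2 and mm10. Their versions, the annotation and the strand setting are not given in the sources used here. The methods name a TruSeq stranded total RNA kit and the sample labels a SMARTER kit. Titles of the samples gave the group and replicate number, and columns were matched by the letter in each sample's description. Libraries of 1 group differed by more than sampling noise (chi-square per degree of freedom of at least 20.0).

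Raw counts were tested with edgeR 4.0.16 in R 4.3.3 (TMM, filterByExpr by group, glmQLFit, glmQLFTest, Benjamini-Hochberg over 14468 genes, threshold 0.05). CPM used TMM library sizes and log2 CPM a prior count of 2. Total counts between 12576615 and 35844417 limit the precision of members with few counts. The design text gives 4 mice per group, so tumors of a group are taken as separate mice. Deviations from group means correlated across genes by 0.11 to 0.62 within each of the 4 same-numbered pairs (mean 0.43) and by -0.60 to 0.48 between the other 12 pairs (mean -0.13), and photoconverted tumor 3 correlated better with control tumor 1 (0.48) than with control tumor 3 (0.41). As every same-numbered pair exceeded 0.1, the numbers were used as the block of an alternative fit. Some of the other pairs exceeded 0.1 too, up to 0.48, so this does not establish a pairing, and no source used here states one. The fits were tested on simulated data with 200 genes changed 4-fold. Recovered were 175 by edgeR with 16 false calls, 185 by DESeq2 with 56, and 166 by limma with 11. The simulation drew each gene independently, without the variation that genes share within a tumor. These numbers are therefore no measure of the power to find a change in the members. Positions and transcript lengths came from GENCODE M21 (GRCm38), and promoters from RefSeq (GRCm38.p6). Members, lists and tests were chosen with earlier results of these data known. The genes named were the members, the paralogs, up to 2 most abundant genes and 1 with the smallest p from each other list, the 8 genes most like the pattern, and Rn45s. Named outside this rule, by their r with the pattern or their low counts, were Ucp1, Otop1, Cox8b, Ppargc1a, Elovl3, Pcx, Awat2 and Lipe. Alternatives were DESeq2 1.42.0, limma 3.58.1 on log2 of the normalized values plus 1, other scaling, no filter, Rn45s left out, 5 tumors, the replicate block, leaving out each tumor and, added later, merged exons. Trarg1 and Angptl8 were matched by older symbols, and Flg is not analysed here.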

Additional observations from a re-analysis of the deposited data

How the results depend on the processing

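No member was past the threshold under any alternative in which it was tested. Of 144 log2 fold changes of members under alternatives, 143 kept their direction, and Plin4 turned to -0.30 without photoconverted replicate 3 and reached 0.83 without control replicate 3. Over the leave-one-out fits, the log2 fold change ranged from 0.49 to 1.78 for Adipoq and from 0.31 to 1.34 for Cfd. The replicate block left the number of genes called at 0, and the count of members at an unadjusted p under 0.05 went from 0 to 6. The number of genes called over the whole table went from 0 to 24 with DESeq2's Wald test and to 42 among the 5 tumors whose Rn45s share was below 10%, and ranged from 0 to 11 over the fits without 1 tumor each. The 11 genes were called without photoconverted replicate 4, where 5 of 10 members had an unadjusted p under 0.05, beside 777 of all 14770 genes tested. The cause was not tested. The members share their tumors, so the 5 members here and the 6 with the block describe the list only. With total counts in place of TMM, the median of all genes moved from -0.01 to 0.06 and that of the members from 0.89 to 1.03. The median r of a member with the others was 0.85, and 0.77 to 0.90 with 1 tumor left out. Counts under 10 in single tumors limit Adipoq, Lep, Retn, Plin1 and Cidec. Among 22 groups of 4 tumors examined for a sample far from the rest, over the members and their sum, 0 had one where chance gives 1.1.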
